A study of Mus musculus with 24 samples.

Results

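The guanylate-binding proteins studied here were Gbp2, Gbp3, Gbp4, Gbp5, Gbp6, Gbp7 and Gbp9, each read by 1 probe. These 7 genes were taken by symbol out of 22911 named genes on the array. They were chosen with earlier results of these data known, and 3 other Gbp genes named on the array are described apart. Counts of members set beside shares of all genes are thus descriptions. All 7 were well above background on all 22 arrays used, and all 7 were among the 14430 genes tested. The cells were ID8, a mouse ovarian cancer line that arose from ovarian surface epithelium in culture. For 3 h they received a recombinant mouse interferon (IFN), either epsilon or beta, at a dose of 10, 100 or 1000 IU/ml, and the untreated cells received the PBS vehicle. All groups were of this 1 line, with no transgene or deletion named in the labels. Each replicate was made on a date of its own, so replicates 1, 2 and 3 stand for 3 dates. Every group had 3 samples, except IFN beta at 10 and at 100 IU/ml, which had 2, because the submitters' labels exclude the arrays of replicate 3 for unusually high interferon-stimulated genes, that is, on a readout of the kind measured here. The 3 untreated samples were hybridised on 2 arrays each, which were averaged.

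Guanylate-binding proteins are large GTPases of the dynamin superfamily that interferons induce in many cell types. They assemble on the membranes of vacuoles that hold bacteria or parasites, and on bacteria that have escaped into the cytosol, where they help to open these membranes and to expose lipopolysaccharide to caspases of the inflammasome. Type I interferons such as IFN epsilon and IFN beta act through the same receptor, made of Ifnar1 and Ifnar2. Its signal brings transcription factors, Stat2 and Irf9 among them, to interferon-stimulated response elements, and gamma-activated sites are the other known class of interferon-responsive DNA motif. Epithelial cells lining the uterus and neighbouring organs make IFN epsilon without infection, whereas many cell types release IFN beta when infected. The comparisons asked how far each interferon raised these transcripts at each dose, and whether the interferons differed at matched doses.

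In the RefSeq annotation of GRCm38.p6 the genes lie in 2 clusters. The cluster on chromosome 3 holds, in order, Gbp5, Gbp7, Gbp3, Gbp2b and Gbp2, and the cluster on chromosome 5 holds Gbp8, Gbp9, Gbp4, Gbp10 and Gbp6. The members resemble each other in sequence, and whether a probe also binds the transcript of another family member was not tested. RefSeq promoter windows (GRCm38.p6) were at hand for Gbp2, Gbp3, Gbp5 and Gbp7, with 1 window each and 2 for Gbp3. They are shown because these genes moved together, and because motifs through which interferons are known to act can be read in them. The 250 bases before each gene's start are given 5′ to 3′, for Gbp3 from the first of its windows. Capitals mark the core of the interferon-stimulated response element, GAAA, any 2 bases and GAAA, which reads TTTC, any 2 bases and TTTC where it lies on the other strand.
Gbp2, chr3:142620413-142620662, plus strand: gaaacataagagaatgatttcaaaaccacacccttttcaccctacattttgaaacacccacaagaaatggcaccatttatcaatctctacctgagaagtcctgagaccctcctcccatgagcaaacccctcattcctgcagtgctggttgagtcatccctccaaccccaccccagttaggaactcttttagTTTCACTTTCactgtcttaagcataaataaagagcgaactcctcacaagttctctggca
Gbp3, chr3:142559794-142560043, plus strand: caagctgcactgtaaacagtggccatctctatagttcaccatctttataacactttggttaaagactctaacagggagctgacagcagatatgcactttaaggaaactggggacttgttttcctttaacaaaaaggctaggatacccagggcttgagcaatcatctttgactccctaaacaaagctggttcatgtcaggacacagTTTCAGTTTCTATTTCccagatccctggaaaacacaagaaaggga
Gbp5, chr3:142496684-142496933, plus strand: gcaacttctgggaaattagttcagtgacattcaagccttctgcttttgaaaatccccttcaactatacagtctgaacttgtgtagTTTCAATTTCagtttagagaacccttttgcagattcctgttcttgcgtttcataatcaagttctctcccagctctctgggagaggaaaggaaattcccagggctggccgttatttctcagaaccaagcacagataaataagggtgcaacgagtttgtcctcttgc
Gbp7, chr3:142530086-142530335, plus strand: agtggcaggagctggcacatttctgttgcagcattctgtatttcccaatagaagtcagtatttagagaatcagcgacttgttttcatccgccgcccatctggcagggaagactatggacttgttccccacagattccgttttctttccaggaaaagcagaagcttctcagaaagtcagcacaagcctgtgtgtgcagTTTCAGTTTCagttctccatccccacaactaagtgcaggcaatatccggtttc
Both strands were searched over the whole windows of 300 bases, which run 50 bases past the start. The response element core was found in all 4 genes, always on the strand opposite to the gene. It began 59 bases before the start in Gbp2, 45 and 39 bases before it in Gbp3 (overlapping matches), 165 bases in Gbp5 and 53 bases in Gbp7. The second window of Gbp3 held no match. Among all 32851 windows of that length, 3.44% held this core. The gamma-activated site, TTCNNNGAA, which reads the same on both strands, was found in Gbp5 at 245 and 52 bases and in Gbp7 at 106 and 87 bases before the start, and in 8.3% of all windows. It did not overlap the response element core in these windows, and it was not found in those of Gbp2 or Gbp3. A match is a run of letters and not a measured binding site.

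The 75th percentile of intensity, to which each array was scaled, lay between 643.5 and 1221 over the 24 arrays. It split by date, at 643.5 to 844.3 on the third date and 955.2 to 1221 on the first and second. Whether this bears on the levels of the third date was not tested. Of 9 epithelial and ovarian surface markers named on the array, 9 were well above background on all arrays. Of 10 leukocyte markers, 5 (Ptprc, Lyz2, Nkg7 and Itgax among them) were well above background on 0 arrays, Adgre1 on 1, and Cd3e, Itgam, Csf1r and Cd68 on all. At 1000 IU/ml IFN epsilon, limma called 0 of the 4 leukocyte markers tested, and 0 had an unadjusted p under 0.05, with a median log2 fold change of 0.01. In bulk RNA a smaller share of responding cells and a smaller response per cell cannot be told apart.

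A single sample stood apart for these genes. The sample of IFN beta at 1000 IU/ml from the third date lay above every sample of IFN epsilon at 1000 IU/ml for 7 of 7 members, while those of the first and second dates lay below every one of them for 7 of 7 members. The share of all genes with this pattern was not counted. Since the members' levels followed each other closely, these counts are not 7 separate observations. Values without this sample are given for many of the results that rest on it.

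The levels below are log2 values of an array's signal over its own 75th percentile, for dates 1, 2 and 3 in that order. A level is comparable between samples for a gene, but not between genes, since each is read by another probe.

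Gbp5, which in mouse and human cells promotes assembly of the NLRP3 inflammasome, changed most. Its level was -5.08, -4.75 and -4.36 in untreated cells, -3.83, -2.54 and -1.68 at 10 IU/ml IFN epsilon, -0.45, 0.95 and 1.29 at 100 IU/ml and 2.31, 2.55 and 2.58 at 1000 IU/ml. With IFN beta it was -4.48 and -5.08 at 10 IU/ml, -3.89 and -3.54 at 100 IU/ml and -0.36, 0.93 and 3.50 at 1000 IU/ml. Each IFN epsilon dose lay clear of the dose below it, whereas IFN beta at 10 IU/ml lay among the untreated samples. The samples of IFN beta at 100 IU/ml were above every untreated sample, and the largest rise came between 100 and 1000 IU/ml. At 1000 IU/ml the samples of IFN epsilon spanned under 1 log2 unit and those of IFN beta nearly 4. Relative to untreated cells, the log2 fold change at 1000 IU/ml was 7.21 ± 0.76 for IFN epsilon (148-fold, adjusted p = 4.21e-05) and 6.09 ± 0.76 for IFN beta (68-fold, adjusted p = 0.000272).

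Here and below, ± after a fold change is its standard error, from limma fitted over all 14430 genes and all 7 groups (12 residual degrees of freedom), and p-values are adjusted over all genes by the Benjamini-Hochberg method. A gene is called at an adjusted p under 0.05. Shares of all genes called are those of this fit unless another fit is named. Most counts of members from the date-block and other alternative fits have no such share beside them. Whether a gain or loss of calls in those fits was particular to the members was not tested.

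Gbp7, which in mouse macrophages helps to bring oxidase subunits and autophagy factors to bacteria, had the smallest standard error of the 7 members and was the only one called at the lowest dose. Its level was -2.91, -2.75 and -2.62 in untreated cells, -0.92, -0.38 and 0.17 at 10 IU/ml IFN epsilon, 1.42, 2.08 and 1.67 at 100 IU/ml and 2.97, 2.86 and 2.42 at 1000 IU/ml. IFN beta gave -2.51 and -2.55 at 10 IU/ml, -1.10 and -0.94 at 100 IU/ml and 1.56, 1.96 and 3.04 at 1000 IU/ml. The lowest dose of IFN epsilon thus gave values above both samples of IFN beta at a dose 10 times as high, by a margin of 0.02 at the closest pair. The log2 fold change over untreated cells at 10 IU/ml was 2.38 ± 0.33 for IFN epsilon (5.21-fold, adjusted p = 0.0031) and 0.23 ± 0.37 for IFN beta (adjusted p = 1).

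Gbp2, an isoprenylated protein that limits growth of Toxoplasma in mouse cells, lay near the arrays' 75th percentile without interferon. Its level was -0.18, 0.41 and 0.55 in untreated cells, 0.52, 1.39 and 2.57 at 10 IU/ml IFN epsilon, 3.41, 4.72 and 5.22 at 100 IU/ml and 5.51, 5.79 and 5.77 at 1000 IU/ml. In IFN beta samples it was -0.18 and 0.33 at 10 IU/ml, 0.66 and 1.04 at 100 IU/ml and 3.25, 4.55 and 6.60 at 1000 IU/ml. The lowest IFN epsilon dose overlapped the untreated samples, and every higher dose was clear of them. The log2 fold change at 1000 IU/ml was 5.43 ± 0.69 for IFN epsilon (adjusted p = 0.000237) and 4.54 ± 0.69 for IFN beta (adjusted p = 0.00164).

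Gbp3, found on the Toxoplasma vacuole in mouse cells, had the smallest change at 1000 IU/ml of the 4 members on chromosome 3. Its level was 0.22, -0.07 and 1.25 in untreated cells, 1.89, 2.24 and 1.41 at 10 IU/ml IFN epsilon, 3.65, 4.07 and 4.12 at 100 IU/ml and 4.66, 4.55 and 4.77 at 1000 IU/ml. With IFN beta it was 0.85 and 0.37 at 10 IU/ml, 2.09 and 1.82 at 100 IU/ml and 3.76, 3.95 and 5.26 at 1000 IU/ml. The untreated sample of the third date was about 1 log2 unit above the next, and every treated sample of IFN epsilon was above it. The log2 fold change at 1000 IU/ml was 4.19 ± 0.38 for IFN epsilon (adjusted p = 1.07e-05) and 3.85 ± 0.38 for IFN beta (adjusted p = 2.98e-05).

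Of the members on chromosome 5, Gbp4 lay at -4.47, -3.66 and -4.09 in untreated cells, at -3.84, -2.53 and -1.94 with 10 IU/ml IFN epsilon, at -1.68, 0.45 and 0.71 with 100 IU/ml and at 0.81, 1.97 and 1.95 with 1000 IU/ml. Under IFN beta it lay at -4.78 and -3.82 at 10 IU/ml, -4.01 and -2.90 at 100 IU/ml and -1.69, 0.26 and 3.34 at 1000 IU/ml. The first date was the lowest at each of the 6 treatments, and the SD at 1000 IU/ml was 0.66 with IFN epsilon and 2.54 with IFN beta. The log2 fold change at 1000 IU/ml was 5.65 ± 0.98 for IFN epsilon (adjusted p = 0.00381) and 4.71 ± 0.98 for IFN beta (adjusted p = 0.022).

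Gbp6, which has been found on the Toxoplasma vacuole in mouse cells, lay at -4.05, -3.77 and -3.62 in untreated cells, at -2.58, -1.61 and -0.91 with 10 IU/ml IFN epsilon, at -0.80, 0.92 and 0.79 with 100 IU/ml and at 1.07, 1.97 and 1.48 with 1000 IU/ml. IFN beta samples lay at -4.10 and -3.56 at 10 IU/ml, -2.90 and -2.10 at 100 IU/ml and -0.31, 0.62 and 2.21 at 1000 IU/ml. Its log2 fold change at 1000 IU/ml was 5.32 ± 0.60 for IFN epsilon (adjusted p = 6.95e-05) and 4.66 ± 0.60 for IFN beta (adjusted p = 0.000317). For Gbp6, all samples of IFN epsilon at 10 IU/ml and of IFN beta at 100 IU/ml were above all untreated samples. Gbp9, also found on that vacuole, lay at -5.34, -4.96 and -5.02 in untreated cells, at -4.70, -3.65 and -3.22 with 10 IU/ml IFN epsilon, at -2.74, -1.57 and -1.89 with 100 IU/ml and at -1.27, -0.64 and -1.26 with 1000 IU/ml. With IFN beta it lay at -5.36 and -4.37 at 10 IU/ml, -4.51 and -4.34 at 100 IU/ml and -2.83, -1.91 and -0.37 at 1000 IU/ml. Gbp9 had the smallest changes of the 7 members at 1000 IU/ml, with log2 fold changes of 4.05 ± 0.53 for IFN epsilon (adjusted p = 0.00029) and 3.40 ± 0.53 for IFN beta (adjusted p = 0.0019).

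**Figure D1:**
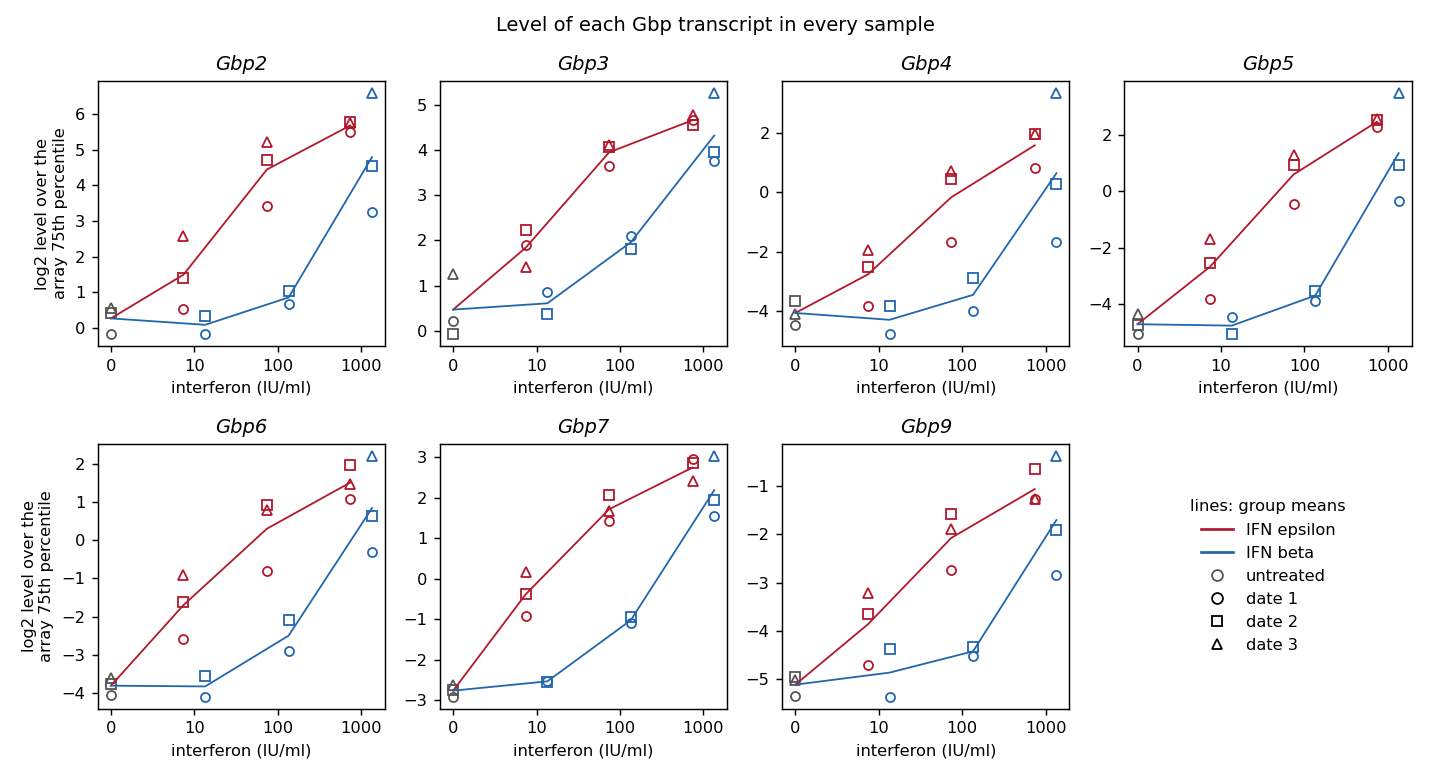
Level of each of the 7 members in all 19 samples (y axis, log2 signal over the array's 75th percentile) against the interferon dose (x axis, IU/ml, 0 for untreated cells). Points are samples with a shape for each date and lines join group means; at 10 IU/ml IFN epsilon 5 of the 7 members (all except Gbp2 and Gbp4) do not overlap the untreated samples (2.76% of all genes), and at 1000 IU/ml the third date of IFN beta lies above every IFN epsilon sample.

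Ordered by mean level, the 3 highest groups were the same for all 7 members, with IFN epsilon at 1000 IU/ml first, IFN beta at 1000 IU/ml next and IFN epsilon at 100 IU/ml after it. Neighbours within these 3 overlapped in their samples for 7 of 7 members. IFN epsilon at 100 IU/ml was clear of the group ranked below it for all 7. That group was IFN epsilon at 10 IU/ml, from which 5.72% of all genes were clear in either direction. For Gbp3 it was IFN beta at 100 IU/ml, with 13.4% of all genes clear. Thus IFN epsilon at 10 IU/ml and IFN beta at 100 IU/ml came next, in that order except for Gbp3. These 2 groups overlapped for all members except Gbp7. IFN beta at 10 IU/ml and untreated cells were the lowest pair. They overlapped for all members except Gbp7, for which the gap was 0.07, and 8.34% of all genes did not overlap.

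The number of members called higher than in untreated cells grew with the IFN epsilon dose. At 10 IU/ml 1 member of 7, Gbp7, was called higher, where 0.201% of all genes were. At this dose 5 members had an unadjusted p under 0.05, as had 152 of 14430 genes. Within dates, the members' differences from untreated cells at 10 IU/ml were all above 0, at 0.16 to 2.78. At 100 IU/ml 6 of 7 were called higher (1.05% of all genes), with Gbp4 at 3.90 ± 0.98 missing the threshold (adjusted p = 0.114), and Gbp9 missed it too when replicate 2 of this dose was left out. At 1000 IU/ml all 7 were called higher (2.24% of all genes). The samples of all 7 were clear of the untreated ones at 100 IU/ml (6.92% of all genes). The median log2 fold change of the members was 1.38, 4.11 and 5.43 at 10, 100 and 1000 IU/ml, beside 0.00, -0.06 and -0.05 for all genes. At 10 IU/ml the members besides Gbp7 had log2 fold changes of 1.23 (Gbp2) to 2.11 (Gbp6), and the samples of 5 members did not overlap the untreated ones (2.76% of all genes), all except Gbp2 and Gbp4. With the date as a block, 2 members were called at 10 IU/ml, Gbp7 (2.38 ± 0.30, adjusted p = 0.00207) and Gbp6 (2.11 ± 0.37, adjusted p = 0.0209), and Gbp4 was called at 100 IU/ml (3.90 ± 0.64, adjusted p = 0.00574). Without the third date, Gbp7 (2.18 ± 0.24, adjusted p = 0.00646) and Gbp3 (1.98 ± 0.22, adjusted p = 0.00646) were called at 10 IU/ml.

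With IFN beta, limma called 0 of 7 members at 10 IU/ml (0% of all genes) and 0 of 7 at 100 IU/ml (0.111% of all genes), and 0 and 2 members had an unadjusted p under 0.05. The median log2 fold change was -0.02 and 1.02 at these doses, beside 0.00 and -0.03 for all genes. The largest value at 100 IU/ml was that of Gbp7 (1.74 ± 0.37, adjusted p = 0.197), followed by Gbp3 (1.49 ± 0.42, adjusted p = 1). Samples of 6 members, all except Gbp4, did not overlap the untreated ones at 100 IU/ml, as was the case for 9.66% of all genes. Without the third date Gbp3 (1.88 ± 0.22, adjusted p = 0.0125) and Gbp7 (1.81 ± 0.24, adjusted p = 0.0232) were called at 100 IU/ml. At 1000 IU/ml all 7 members were called higher (1.58% of all genes), with a median log2 fold change of 4.66 beside -0.04. Without the sample that stood apart 6 of these calls remained, with log2 fold changes of 2.74 (Gbp9) to 5.02 (Gbp5), and Gbp4 missed the threshold (3.36 ± 0.78, adjusted p = 0.0646). Gbp4 also missed it when replicate 2 of this group or any 1 untreated sample was left out.

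**Figure D2:**
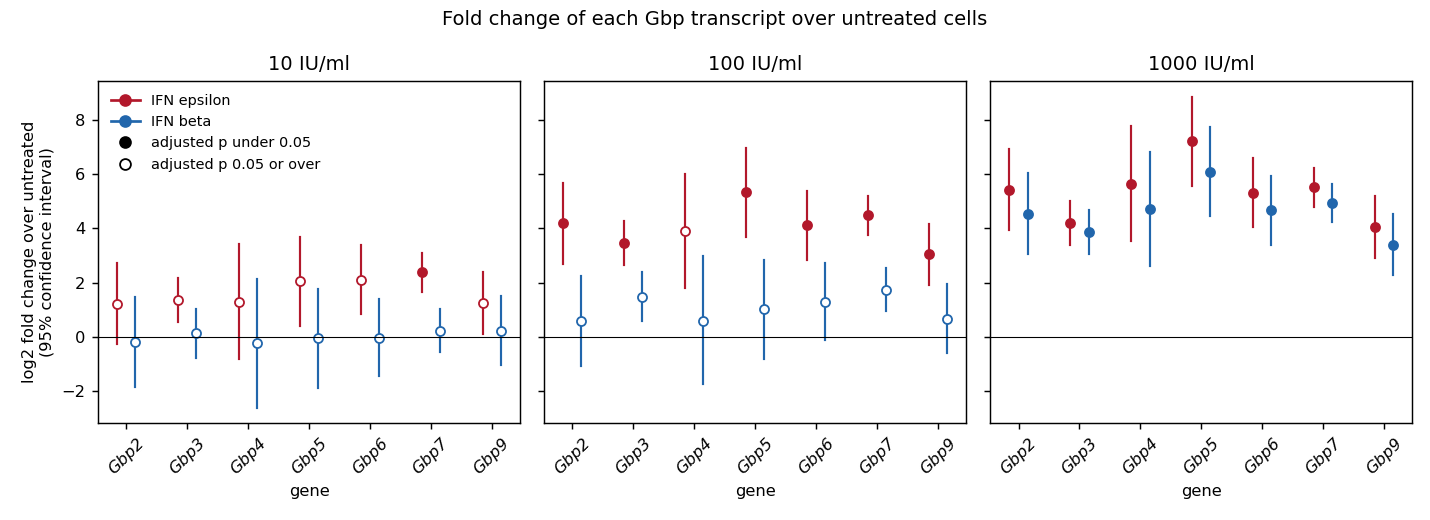
Log2 fold change of each member over untreated cells (y axis, with 95% confidence intervals from limma) for IFN epsilon and IFN beta at 10, 100 and 1000 IU/ml (panels). Filled points passed an adjusted p of 0.05; the intervals of IFN beta at 10 IU/ml all include 0, and at 1000 IU/ml all 14 values are called.

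The interferons were compared at 3 matched doses, with p-values adjusted over all genes within each. At 10 IU/ml IFN epsilon exceeded IFN beta for Gbp7 alone among the members by the test (2.15 ± 0.37, adjusted p = 0.044, with 0.097% of all genes called), and the median difference was 1.53 on the log2 scale beside 0.00 for all genes. This call was lost with the date as a block (2.04 ± 0.34, adjusted p = 0.0528) and kept without the third date (1.88 ± 0.24, adjusted p = 0.0429). It was also lost when replicate 1 or 2 of IFN beta or replicate 2 or 3 of IFN epsilon at this dose was left out. The other 6 members differed by 1.00 (Gbp9, 95% interval -0.26 to 2.27) to 2.13 (Gbp6, 0.70 to 3.56), with an adjusted p of 1 each. On each of the 2 dates with both samples, IFN epsilon was higher for all 7 members, by 0.65 to 2.54. The members of 1 date are not separate replicates. Over all samples of this dose 5 members did not overlap (7.39% of all genes).

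At 100 IU/ml the difference was wider. Gbp7 was again the 1 member called (2.74 ± 0.37, adjusted p = 0.00744, with 0.0901% of all genes called), and the median difference over members was 2.80 on the log2 scale beside -0.02. Gbp5 had the largest difference, 4.31 ± 0.85 (19.8-fold), at an adjusted p of 0.104, and Gbp2 differed by 3.6 ± 0.78 (adjusted p = 0.128). All 7 members had every IFN epsilon sample above every IFN beta sample, as 13.4% of all genes had in either direction. With the date as a block 4 members were called, namely Gbp2 (3.20 ± 0.49, adjusted p = 0.0197), Gbp5 (3.88 ± 0.63, adjusted p = 0.023), Gbp6 (2.52 ± 0.42, adjusted p = 0.0249) and Gbp7 (2.62 ± 0.34, adjusted p = 0.0168). Without the third date the 4 called were Gbp2, Gbp3, Gbp5 and Gbp7, at differences of 1.90 (Gbp3) to 3.96 (Gbp5). With replicate 1 of IFN beta or replicate 2 of IFN epsilon at this dose left out, 0 were called. On each of the 2 dates with both samples, IFN epsilon was higher for all 7 members, by 1.56 to 4.49, where members are again not separate replicates.

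At 1000 IU/ml limma called 0 of 7 members between the interferons (0% of all genes), and 0 had an unadjusted p under 0.05. The differences ran from 0.34 ± 0.38 for Gbp3 (95% interval -0.47 to 1.15) to 1.12 ± 0.76 for Gbp5 (-0.52 to 2.76), so that intervals allow differences of more than 1 log2 unit in favour of IFN epsilon for each member. The dates went opposite ways. On the first and second dates IFN epsilon was higher for all 7 members, by 2.67 (Gbp5, first date) at most and 0.61 (Gbp3, second date) at least. On the third date IFN epsilon was lower for all 7, with differences of -0.48 (Gbp3) to -1.39 (Gbp4). Without the IFN beta sample of the third date, the differences were 0.81 ± 0.33 (Gbp3) to 2.29 ± 0.78 (Gbp4) and adjusted p-values were 0.53 (Gbp5) or more. Thus no member passed the test with or without this sample.

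**Figure D3:**
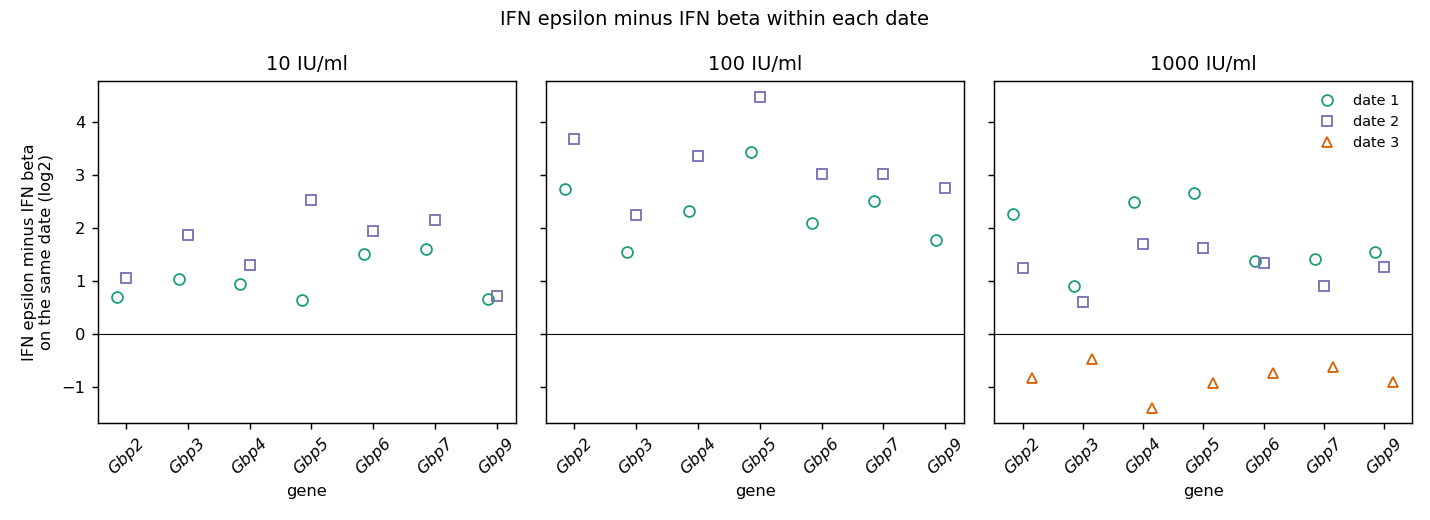
IFN epsilon minus IFN beta on the same date (y axis, log2) for each member at 10, 100 and 1000 IU/ml (panels), with a shape and colour for each date. All differences are above 0 except those of the third date at 1000 IU/ml, which lie between -0.48 and -1.39; at the lower doses the third date has no value.

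No test compared the interferons within a single dose step. From 10 to 100 IU/ml, the IFN epsilon step had a median over the members of 2.10 on the log2 scale, and Gbp7 was called (2.10 ± 0.33, adjusted p = 0.0328, with 0.0693% of all genes called). With the date as a block 5 members were called at this step, all except Gbp4 and Gbp9, at 2.00 (Gbp6) to 3.28 (Gbp5), whereas with any 1 of the 6 samples left out 0 were called. The same step of IFN beta had a median of 1.07, with 0 members called (0% of all genes) and 2 at an unadjusted p under 0.05, while 5 members did not overlap between these doses (14.8% of all genes). From 100 to 1000 IU/ml the IFN epsilon step had a median of 1.2, with 0 members called by limma (0% of all genes) and 2, Gbp5 and Gbp7, at an unadjusted p under 0.05, while the samples of the doses did not overlap for 7 members (5.29% of all genes). For IFN beta this step had a median of 3.34, and 5 members were called, all except Gbp4 and Gbp9 (0.499% of all genes called). With the date as a block all 7 passed this IFN beta step, at 2.21 (Gbp3) to 4.64 (Gbp5). With the slide as a block Gbp5 and Gbp7 were called, without the sample that stood apart or without replicate 2 of the 1000 IU/ml dose 3 members were, and without replicate 1 or 2 of the 100 IU/ml dose 0 and 1 were. On the same date a higher dose gave the higher level for all 7 members at each step. This held on all 3 dates with IFN epsilon and on the 2 dates with samples of IFN beta at every dose. The members of 1 date are not separate replicates, and the share of all genes was not counted.

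Over the whole range, 1000 against 10 IU/ml, all 7 members rose with IFN epsilon (median log2 difference 3.20, with 1.39% of all genes called higher) and all 7 with IFN beta (median 4.72, with 1.13%). The samples of these doses did not overlap for any member with IFN epsilon (9.74% of all genes) or IFN beta (15.8% of all genes). Only 4 members were called when replicate 1 at 10 IU/ml or replicate 2 at 1000 IU/ml IFN epsilon was left out, or when either sample of IFN beta at 10 IU/ml was, and without the sample that stood apart 6 were called with IFN beta. The difference between these dose effects, IFN epsilon minus IFN beta, was below 0 for all 7 members, with a median of -0.89. In limma 0 members passed (0% of all genes) and 1, Gbp7, had an unadjusted p under 0.05 (-1.59 ± 0.50, adjusted p = 1). Without the third date the value turned positive for Gbp2, Gbp4, Gbp5 and Gbp9, at 0.55 (Gbp5) to 0.99 (Gbp4). Without the sample that stood apart it turned positive for the same 4 members, at 0.10 (Gbp5) to 0.76 (Gbp4). No member was called in any of these fits.

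The arrays left out bear on the third date. Their levels were 5.72 for Gbp2 at 10 IU/ml IFN beta and 6.57 at 100 IU/ml, beside 6.60 at 1000 IU/ml and 0.55 in the untreated sample of that date. For Gbp5 they were 2.05 and 3.23, beside 3.50 and -4.36. Both arrays were above the highest untreated sample for every member, which follows in part from the reason for their exclusion. The share of all genes was not counted. The samples of the other dates at the same doses were far lower (for Gbp5, -4.48 and -5.08 at 10 IU/ml). With these arrays put back, the number of members called over untreated cells was 0 at 100 IU/ml IFN epsilon, 1 (Gbp7) at 1000 IU/ml IFN epsilon and 0 at 1000 IU/ml IFN beta, with fold changes at 1000 IU/ml as before and larger standard errors, such as 5.43 ± 1.49 for Gbp2 with IFN epsilon.

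**Figure D4:**
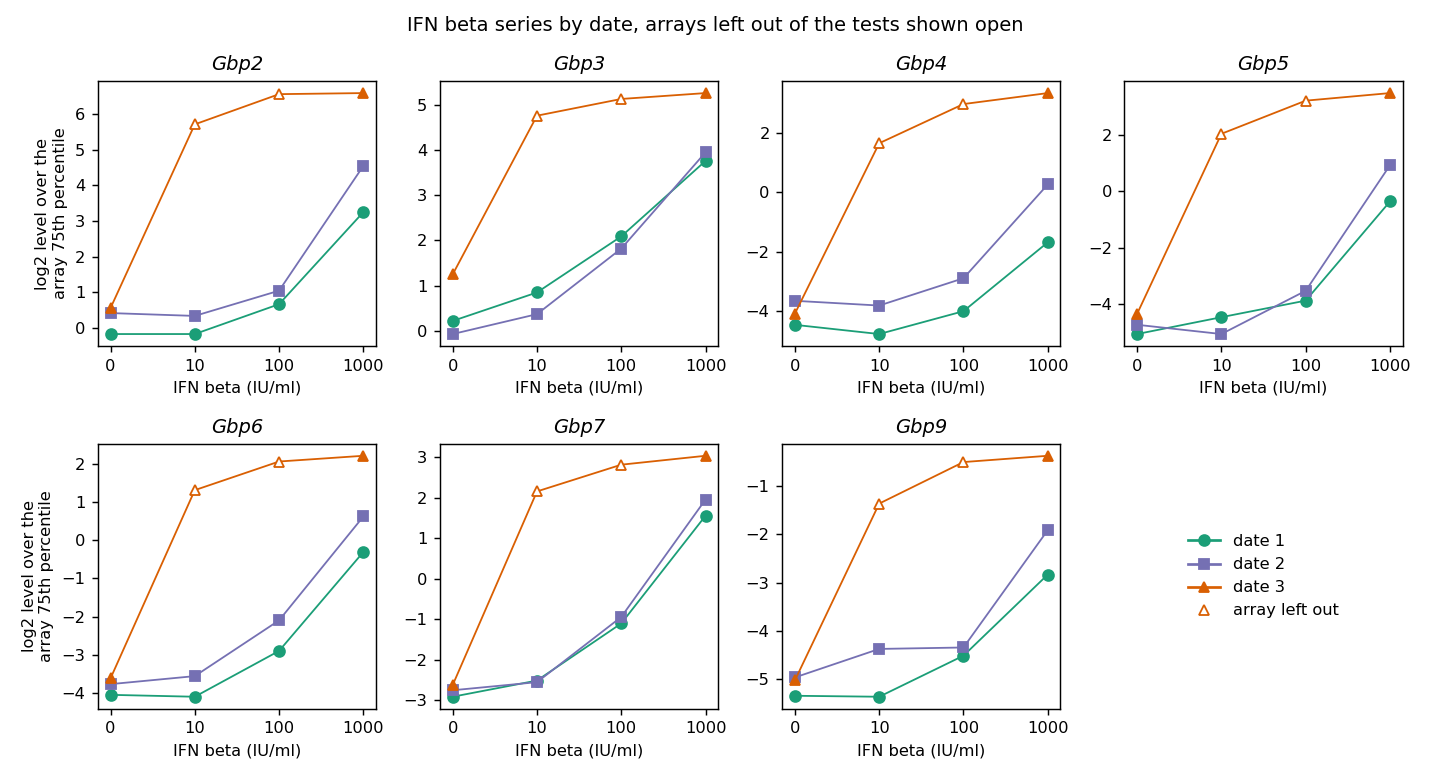
Level of each member (y axis, log2 signal over the array's 75th percentile) in the IFN beta series of each date (x axis, IU/ml, 0 for untreated cells), with the arrays left out of the tests as open symbols. On the third date the levels at 10 and 100 IU/ml IFN beta lie far above the untreated level, for Gbp5 at 2.05 and 3.23 beside 3.50 at 1000 IU/ml, whereas on the other dates those at 10 IU/ml lie near the untreated level and those at 1000 IU/ml far above it.

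Among the other Gbp genes named on the array 2 were tested. Gbp10 was called at 1000 IU/ml IFN epsilon (3.09 ± 0.54, adjusted p = 0.0037) and IFN beta (2.64 ± 0.54, adjusted p = 0.0178). Gbp8 was called with IFN epsilon (2.47 ± 0.56, adjusted p = 0.0297) and missed the threshold with IFN beta (1.90 ± 0.56, adjusted p = 0.204). Without the sample that stood apart neither was called with IFN beta, at 1.97 ± 0.46 for Gbp10 (adjusted p = 0.069) and 1.17 ± 0.48 for Gbp8 (adjusted p = 0.992). Neither was called at 10 or 100 IU/ml of either interferon. Gbp2b, which lies between Gbp3 and Gbp2 and whose promoter window holds the response element core, was well above background on 0 of 22 arrays and was not tested.

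Across the 19 samples the members' log2 levels followed each other closely. The Pearson correlation of each member with the mean of the others was 0.96 (Gbp3) to 1.00 (Gbp5), as a description, since the samples share 7 treatments and 3 dates. The 5 genes outside the family most like the members' mean were Iigp1 (r = 0.994), Gm1966 (0.993), Ifit1bl1 (0.993), Uba7 (0.991) and Gm4951 (0.990). Iigp1 and Gm4951 belong to the immunity-related GTPases, which also act on pathogen vacuoles in mouse cells, and Uba7 encodes the activating enzyme of Isg15. Iigp1 was well above background on 0 of 6 untreated arrays, and against the lowest signal measured it was at least 383-fold higher at 1000 IU/ml IFN epsilon (adjusted p = 3.45e-05) and at least 138-fold higher at 1000 IU/ml IFN beta (adjusted p = 0.000208), or at least 52.3-fold without the sample that stood apart (adjusted p = 0.000271). Here a bound sets the mean of the bright group against each untreated array's lowest signal among spots well above background. Where the probe's own signal was higher, that signal was used. An adjusted p beside a bound, here and below, is that of the limma fit to the untreated signals as measured. It does not test the bound. Ifit1bl1 and Gm4951 were also well above background on 0 of 6 untreated arrays. Their correlations, like that of Iigp1, thus rest in part on signals not well above background.

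Genes that work with guanylate-binding proteins were counted at 1000 IU/ml against untreated cells. Among all genes 2.24% were called higher with IFN epsilon and 1.58% with IFN beta, or 1.2% with IFN beta without the sample that stood apart. Of 9 immunity-related GTPases tested, 8 rose with IFN epsilon (median log2 fold change 4.59) and 8 with IFN beta (4.25, and 8 at a median of 3.81 without that sample), beside -0.05 and -0.04 for all genes. Among the 8 were Iigp1 and Gm4951, which passed the filter only through treated groups. With Iigp1 and Gm4951 at their bounds the medians were 4.59 for IFN epsilon and 4.15 for IFN beta. The 3 with the highest fitted fold changes with IFN epsilon were Iigp1, Gm4951 and Gm12250, an order that the bounds do not establish. Gm4951, well above background on 0 of 6 untreated arrays, was at least 37-fold higher with IFN epsilon (adjusted p = 1.82e-05) and at least 15.9-fold higher with IFN beta (adjusted p = 0.00013), or at least 9.01-fold without the sample that stood apart. Gm12250, well above background on 1 of 6 untreated arrays, had a fitted log2 fold change of 6.83 ± 0.96 with IFN epsilon (adjusted p = 0.000607) and 5.53 ± 0.96 with IFN beta (adjusted p = 0.00511), or 4.24 ± 0.78 without that sample (adjusted p = 0.0125). Of 14 tested genes of interferon receptors, their kinases, transcription factors and inhibitors, 5 rose with each interferon, among them Stat2, Irf2, Irf9 and Usp18, an inhibitor at the receptor. Without the sample that stood apart 4 rose with IFN beta, and Irf2 missed the threshold (0.96 ± 0.27, adjusted p = 0.212). Stat2 rose by 2.91 ± 0.33 with IFN epsilon and 2.81 ± 0.33 with IFN beta (adjusted p = 8.52e-05 and 0.000176), and Usp18 by 5.63 ± 0.44 and 5.40 ± 0.44 (adjusted p = 2.37e-06 and 4.09e-06).

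At 10 IU/ml IFN epsilon, where Gbp7 was the member called, Irf9 (1.23, adjusted p = 0.0104) and Usp18 (3.51, adjusted p = 0.00123) were among the 3 called of the 14 genes in that list, where 0.201% of all genes were called higher. Of the inflammasome genes that act downstream of guanylate-binding proteins, 2 of 8 tested rose with IFN epsilon at 1000 IU/ml (2.24% of all genes) and 1 with IFN beta (1.58% of all genes), and without the sample that stood apart limma called 0 with IFN beta, with 2 (Casp1 and Casp4) at an unadjusted p under 0.05. Casp4, the caspase that binds lipopolysaccharide, rose by 2.03 ± 0.36 with IFN epsilon (adjusted p = 0.00489) and 1.77 ± 0.36 with IFN beta (adjusted p = 0.0194), or was at 1.32 ± 0.31 without that sample (adjusted p = 0.0771, unadjusted p = 0.00104). Casp1, which cleaves interleukin precursors, rose by 1.62 ± 0.30 with IFN epsilon (adjusted p = 0.00538) and was at 1.16 ± 0.30 with IFN beta (adjusted p = 0.0828). Of the 11 inflammasome genes listed, Nlrp3 and Nlrc4 were well above background on 0 of 22 arrays and Il1b on 1, so these were not tested. Aim2, tested and not called at this dose, was well above background on 0 of 6 untreated arrays. Of 13 ubiquitin and autophagy factors, 1 rose with each interferon, the ubiquitin ligase Trim21 (3.77 ± 0.61 with IFN epsilon, adjusted p = 0.00218, and 3.56 ± 0.61 with IFN beta, adjusted p = 0.00474, or 3.00 ± 0.62 without that sample, adjusted p = 0.0292). Of 6 other dynamin-like GTPases tested, 1 rose with each, Gvin1 (5.20 ± 0.43 with IFN epsilon, adjusted p = 4.5e-06, and 4.62 ± 0.43 with IFN beta, adjusted p = 1.75e-05, or 4.05 ± 0.35 without that sample, adjusted p = 1.95e-05). Mx1 and Mx2, of the same list, were not named on the array and so were not tested. Of 6 enzymes that prenylate and process proteins such as Gbp2 and Gbp5, limma called 0 with either interferon and 0 had an unadjusted p under 0.05, with log2 fold changes of -0.19 to 0.20 for IFN epsilon and -0.14 to 0.14 for IFN beta.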

How the data were processed

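RNA of mouse ID8 cells was hybridised to 24 Agilent 1-colour arrays on 3 slides of 8 arrays. The deposited scanner files hold a processed signal intensity for each spot, which per the file headers had its background subtracted and was detrended inside each array (Agilent Feature Extraction, version 11.0.1.1). The submitters' processing notes also name R 3.6.1 and limma 3.42.0, with no roles. A table of processed values, also deposited by the authors, is on a log2 scale and served as an alternative. Flags for spots well above background were those of the scanner software.

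From the intensities, log2 of the processed signal minus the array's 75th percentile was computed, spots of a probe were averaged, and each gene was read by its probe with the highest mean. Genes were named through their accessions in RefSeq (GRCm38.p6), which gave a gene to 32994 of 56605 probes. A probe was tested where at least 2 samples of 1 group or more were well above background. The fit used limma 3.58.1 in R 4.3.3 (lmFit, eBayes, Benjamini-Hochberg) over 19 samples in 7 groups with no block. Simulated data with known changes were used to test the fit. The number of arrays limits the precision.

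Replicates come from separate dates according to the series design, so replicate numbers pair the samples. The correlation of deviations from group means was -0.06 to 0.77 (median 0.47) over 52 pairs with the same number and -0.61 to 0.28 (median -0.21) over 102 pairs with different numbers. Alternatives were median and quantile scaling, normexp with an offset of 50, the deposited table, no filter, the mean over probes, date and slide as blocks, all 24 arrays, only the groups compared and each sample left out. Normexp ran on the median signal, because the files hold no mean signal. A fit to dates 1 and 2 was chosen after seeing the data. The genes named were all members, other Gbp genes on the array, the 3 largest called changes of each list at 1000 IU/ml IFN epsilon and the 5 genes most correlated with the members. Irf2, Irf9, Nlrp3, Nlrc4, Il1b and Aim2 were named beside these after their values were seen. Some genes of the lists are not reported here by name. The members and lists were chosen with earlier results of these data known. Promoters were searched in Python 3.11.15.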

Additional observations from a re-analysis of the deposited data

Results flagged for a closer look

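The 2 arrays that the labels exclude, IFN beta at 100 and at 10 IU/ml on the third date, carried a signal of every member above the highest untreated sample. The labels exclude them for unusually high interferon-stimulated genes, so this follows in part from the exclusion and is a description. The share of all genes was not counted, and members on 1 array are not separate observations. These arrays entered no comparison in the main tests. On the array at 100 IU/ml the log2 level was 6.57 for Gbp2, 5.13 for Gbp3, 2.97 for Gbp4, 3.23 for Gbp5, 2.06 for Gbp6, 2.82 for Gbp7 and -0.5 for Gbp9. On the array at 10 IU/ml it was 5.72 for Gbp2, 4.76 for Gbp3, 1.65 for Gbp4, 2.05 for Gbp5, 1.31 for Gbp6, 2.16 for Gbp7 and -1.36 for Gbp9. The highest untreated levels were 0.55 for Gbp2, 1.25 for Gbp3, -3.66 for Gbp4, -4.36 for Gbp5, -3.62 for Gbp6, -2.62 for Gbp7 and -4.96 for Gbp9. The sample of IFN beta at 1000 IU/ml from the same date is the one that stood above every IFN epsilon sample. The cause was not tested.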

How the results depend on the processing

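No called value of a member changed direction under any alternative run. Of 1883 values of single members, 1669 kept their direction and side of the threshold, 140 lost the call, 25 gained it and 49 turned, all of these uncalled. The cause of these changes was not tested. Among the 1883 values, 112 came from the mean over the probes of a gene, and all 112 were unchanged. Each member was read by a single probe, so that setting could not alter a member's levels. A further 651 values came from fits with a sample left out. The fit without the third date, chosen after seeing the data, gave 112 more. The total is thus a description and not a measure of stability.

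Members called over untreated cells at 10, 100 and 1000 IU/ml IFN epsilon and 1000 IU/ml IFN beta (main 1, 6, 7 and 7) were 0, 0, 1 and 0 with all 24 arrays. With only the groups compared, counts were 0 at 10 IU/ml IFN epsilon and 1 at 1000 IU/ml IFN beta. With the replicate block, the comparison at 10 IU/ml IFN epsilon called 2. Dates 1 and 2 alone called 2 at 10 IU/ml IFN epsilon and 2 at 100 IU/ml IFN beta.

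Between the interferons at 10 IU/ml (main 1), 0 were called with the replicate block, all 24 arrays, only the groups compared, median scaling, normexp or no filter. At 100 IU/ml (main 1), 4 were called with the replicate block, 4 with dates 1 and 2, 2 in the deposited table, and 0 with all 24 arrays, only the groups compared or median scaling.

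The IFN epsilon step from 10 to 100 IU/ml (main 1) had 5 with the replicate block, 2 with normexp, quantile scaling, the deposited table or dates 1 and 2, and 0 with all 24 arrays, only the groups compared, median scaling or no filter. From 10 to 1000 IU/ml IFN epsilon (main 7), 0 were called with all 24 arrays. The IFN beta step from 100 to 1000 IU/ml (main 5) had 3 with median scaling, 3 with no filter, 2 with the slide block, and 0 with all 24 arrays or only the groups compared. From 10 to 1000 IU/ml IFN beta (main 7), 0 were called with all 24 arrays or only the groups compared. The replicate block changed no call beside those given here and in the report.

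With 1 sample left out, counts lay between 0 and 1 for the interferons at 10 IU/ml and at 100 IU/ml, were 0 throughout for the IFN epsilon step from 10 to 100 IU/ml, and lay between 4 and 6 for IFN epsilon from 10 to 1000 IU/ml, 0 and 7 for the IFN beta step from 100 to 1000 IU/ml and 4 and 7 for IFN beta from 10 to 1000 IU/ml. A lone sample of a group is then assumed to vary like the other groups.

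The values that turned were as follows. For IFN beta at 10 IU/ml against untreated cells, the replicate block gave 0.22 for Gbp2, 0.25 for Gbp4, 0.38 for Gbp5 and 0.27 for Gbp6, and all 24 arrays gave 1.70, 1.75, 2.23 and 1.70 for these genes. Gbp5 had 0.12 with the slide block and 0.14 with dates 1 and 2, where Gbp6 had 0.08, and Gbp9 had -0.05 with normexp and -0.02 in the deposited table. With 1 sample left out the ranges were -0.44 to 0.07 for Gbp2, -0.12 to 0.53 for Gbp3, -0.71 to 0.25 for Gbp4, -0.35 to 0.25 for Gbp5, -0.28 to 0.25 for Gbp6 and -0.25 to 0.74 for Gbp9. At 100 IU/ml IFN beta, Gbp9 had -0.03 with normexp, and from 10 to 100 IU/ml it ranged over -0.06 to 0.94 with 1 sample left out. Between the interferons, all 24 arrays gave -0.46 for Gbp2, -0.15 for Gbp3, -0.45 for Gbp4, -0.18 for Gbp5 and -0.16 for Gbp9 at 10 IU/ml, and Gbp4 ranged over -0.23 to 2.29 at 1000 IU/ml with 1 sample left out. The difference of the dose effects was 1.36 for Gbp2, 0.49 for Gbp3, 1.39 for Gbp4, 1.30 for Gbp5, 0.25 for Gbp6 and 0.81 for Gbp9 with all 24 arrays. With dates 1 and 2 it was 0.87 for Gbp2, 0.99 for Gbp4, 0.55 for Gbp5 and 0.73 for Gbp9, and with normexp 0.01 for Gbp4 and 0.10 for Gbp9. With 1 sample left out it ranged over -1.30 to 0.38 for Gbp2, -1.76 to 0.76 for Gbp4, -1.83 to 0.10 for Gbp5 and -0.92 to 0.31 for Gbp9.

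Median scaling moved the median of all genes to -0.43 at 1000 IU/ml IFN epsilon against untreated cells, where members lay between 3.67 and 6.83.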
